A study of Homo sapiens with 2 samples.

Results

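R3HDM2 is a gene of 177 kb on the minus strand of chromosome 12, and the TARBP2-bound RNA regions that lay in it are described here. The members were chosen by position, as the deposited minus-strand regions that overlapped the gene span of 57647547 to 57824788 (hg19) by at least 1 nt, and they numbered 33 of 23412 regions in the whole list. The RNA came from MDA-LM2, an established line of human breast cancer cells with a high capacity to colonise the lung, transfected with a myc-tagged TARBP2 vector. After 48 hours RNA and protein were cross-linked by UV light and the cells entered HITS-CLIP, which pulls down a protein with an antibody, here against myc, and sequences the RNA fixed to it by the light. The protein pulled down was thus the tagged one made from the vector, and no control group was analysed here. The samples formed 1 group of 2 replicates, with 1 list of stranded regions for both and a score of 1 for each region. The values below therefore have no replicate error and no depth behind a region, and more R3HDM2 RNA in the cells and more binding per RNA molecule cannot be told apart. The list carries no expression levels, so the labelled cell type was not checked against markers. The locus itself was selected on its number of listed regions, so the number and density of regions are given as a description, with no test.

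TARBP2 binds double-stranded RNA and is best known as the partner of the nuclease Dicer, which cuts microRNA precursors in the cytoplasm. It also binds structured stretches of messenger RNA, and a nuclear pool of the protein has been described on intron-containing RNA. R3HDM2 encodes a protein with an R3H domain, a small fold that binds single-stranded nucleic acid, and is related to R3HDM1 and ARPP21. Like many long genes it starts with short exons that carry no coding sequence, separated by very long introns, and most of the coding exons lie close together near the 3′ end.

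The regions filled the start of the gene and thinned out along it. Of the 33 regions, 30 (90.9%, 95% exact Clopper-Pearson interval 75.7 to 98.1%) had their midpoint on the 5′ side of the middle of the gene and 3 on the 3′ side. All 33 lay in introns, 17 of them in the first intron and 15 in the second, and 0 overlapped an exon. The regions covered 39.5% of the first 10 kb, 12.8% of the stretch from 30 to 40 kb and 0% of the stretch from 110 to 160 kb. The plus strand of the same span held 2 regions.

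**Figure D1:**
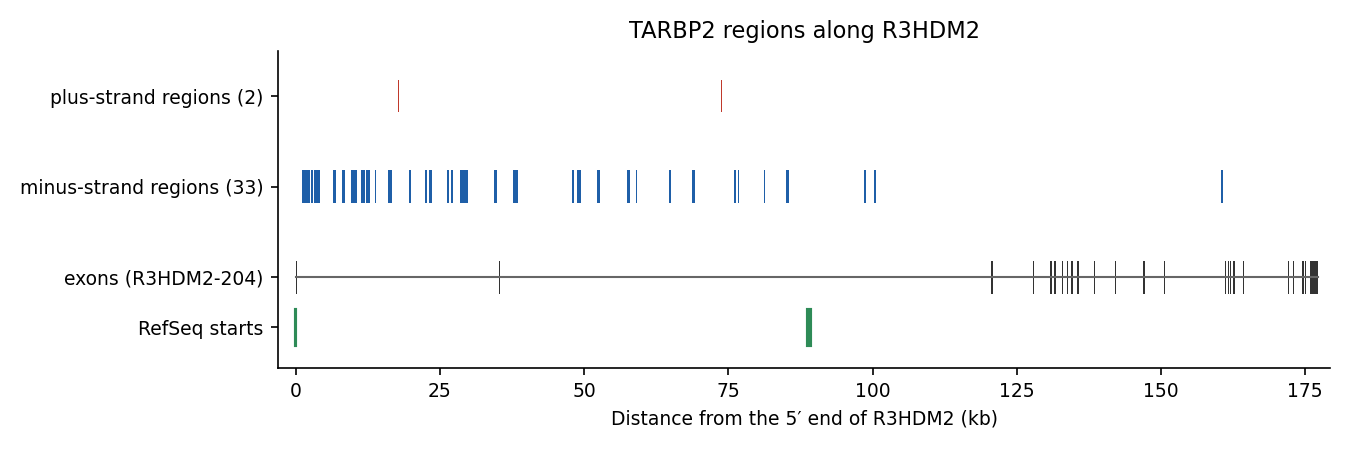
Positions of the TARBP2 regions along R3HDM2, with the distance from the 5′ end of the gene in kb on the horizontal axis. Rows show the 2 plus-strand regions, the 33 minus-strand regions, the exons of the transcript R3HDM2-204 and the 3 RefSeq start sites, of which the pair near 89 kb is drawn almost as 1 line. The minus-strand regions crowd in the first 30 kb, thin out towards this pair and are nearly absent where the coding exons lie.

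Where transcription starts matters for reading these positions, because R3HDM2 transcripts do not all contain the first introns. RefSeq lists 3 start sites for the gene in its promoter table, on GRCh38.p14. Start 1 lies 38 nt before the 5′ end used here, start 2 lies 88.5 kb and start 3 lies 89.2 kb downstream of it. The 250 bases before each start are shown to describe the starts, and they do not mark an edge of the coverage. The windows from 60 to 90 kb, up to starts 2 and 3, were covered by only 6.85%, 6.73% and 8.01%. They are written 5′ to 3′ on the minus strand, and the capitals mark CG dinucleotides. Start 1 is chr12:57431044-57431293, start 2 is chr12:57342457-57342706 and start 3 is chr12:57341775-57342024, all coordinates of GRCh38.p14.
start 1: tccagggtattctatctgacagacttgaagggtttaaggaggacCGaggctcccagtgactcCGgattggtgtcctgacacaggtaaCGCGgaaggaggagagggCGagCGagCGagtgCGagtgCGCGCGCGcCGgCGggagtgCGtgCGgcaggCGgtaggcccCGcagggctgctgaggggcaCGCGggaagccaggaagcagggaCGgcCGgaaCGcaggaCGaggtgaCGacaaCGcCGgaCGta
start 2: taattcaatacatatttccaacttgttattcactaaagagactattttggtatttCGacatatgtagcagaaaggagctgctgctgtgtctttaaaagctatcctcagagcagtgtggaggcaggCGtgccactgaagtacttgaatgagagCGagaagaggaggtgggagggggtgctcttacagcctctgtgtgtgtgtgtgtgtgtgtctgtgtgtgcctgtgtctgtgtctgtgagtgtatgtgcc
start 3: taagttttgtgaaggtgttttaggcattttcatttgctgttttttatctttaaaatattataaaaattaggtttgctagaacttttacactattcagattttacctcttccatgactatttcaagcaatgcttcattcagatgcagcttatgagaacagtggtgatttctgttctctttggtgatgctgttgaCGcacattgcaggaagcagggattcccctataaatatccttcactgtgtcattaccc

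The stretch before start 1 held 28 CG dinucleotides and was 66.4% G or C, while the stretches before starts 2 and 3 held 3 and 1 and were 46.4% and 35.2% G or C. Of the 35116 windows of this length in the table, whose median was 11 CG dinucleotides, 15.9% held at least as many as start 1. The same share was 77.1% for start 2 and 93.9% for start 3. The letters TATAAA, searched on both strands, were found before start 3 only, at 192 and at 29 nt before the start. They are present in 10.7% of all windows. A match of letters describes the sequence and does not show that a factor binds there.

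All 30 regions of the 5′ side lay between start 1 and start 2, that is, in sequence that transcripts from starts 2 and 3 do not contain. The last of them ended 2.98 kb before start 2, and the next region began 9.93 kb after it. The same 30 lay before start 3. In GENCODE 29, 4 of the 15 annotated R3HDM2 transcripts begin within 1000 nt of the 5′ end, and the other 11 begin further downstream. The middle of the gene happens to fall next to start 2, so a split at the middle and a split at the internal start give the same counts.

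The exons of R3HDM2-204, a coding transcript of 24 exons, were placed by their distance from the 5′ end of the gene, since their coordinates are on GRCh38 and those of the regions on hg19. Its first exon of 286 nt and its second of 70 nt carry no coding sequence, and the coding sequence begins in the third exon, which starts 120.5 kb from the 5′ end. The first intron spans 34.9 kb (19.7% of the gene) and held 17 regions, 0.487 per kb, which covered 30.2% of it. The second intron spans 85.3 kb (48.1% of the gene) and held 15 regions, 0.176 per kb, which covered 6.75% of it. Each value was lower in the second intron, although it is the longer of the pair. The remaining 21 introns add up to 52.7 kb and held 1 region, in intron 14. Thus 32 of the 33 regions lay before the coding sequence.

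No region touched an exon of any annotated R3HDM2 transcript. The exons of all transcripts together make up 5903 nt, or 3.33% of the gene span. A count of 0 among 33 is compatible with a share as high as 9.09% (the limit being 3 counts). This limit is a share of regions that touch an exon, while 3.33% is a share of nucleotides. They are unlike measures and were not compared, and whether regions avoid exons was not tested. Distances to the nearest exon ranged from 315 nt to 24.5 kb, with a median of 10.5 kb. Within 1000 nt of an exon lay 3 regions, at 315, 348 and 790 nt. The region at 348 nt (57789950 to 57790377) was the last of the first intron, just before the second exon. The region at 790 nt followed the first exon.

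**Figure D2:**
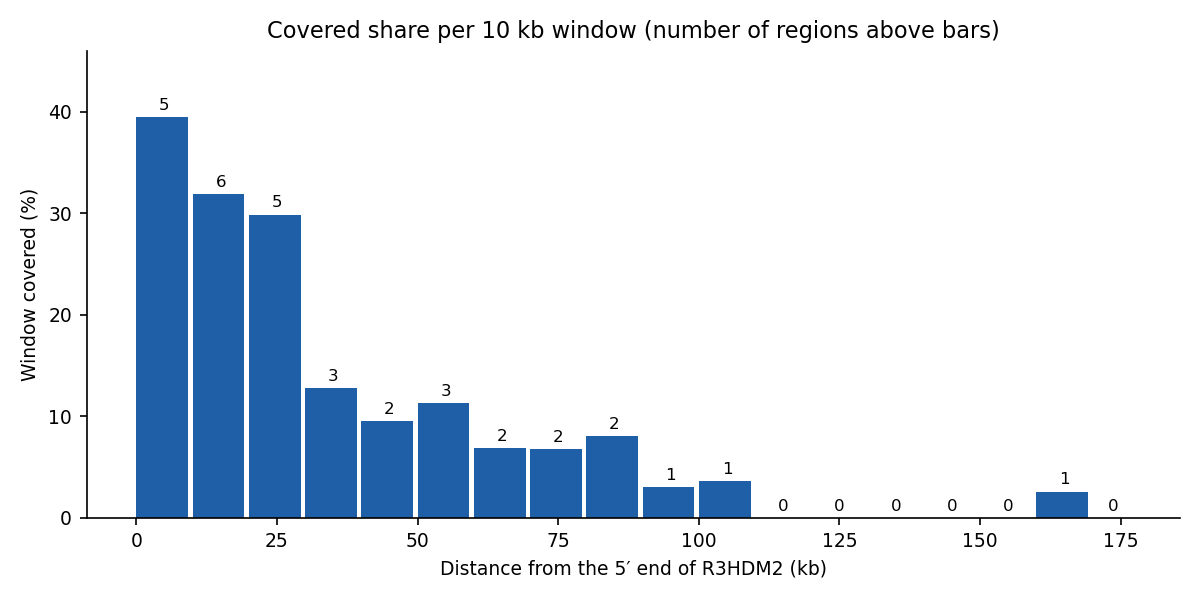
Share of each 10 kb window of R3HDM2 covered by minus-strand regions, in percent, against the distance from the 5′ end in kb. The number above a bar counts the regions with their midpoint in the window, and the last window is 7.24 kb long. The first 3 windows stand at 29.9 to 39.5%, the following ones at 12.8% or less.

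The coverage fell in steps. The windows from 0 to 10, 10 to 20 and 20 to 30 kb were covered by 39.5%, 31.9% and 29.9% and held 5, 6 and 5 regions. From 30 to 60 kb the windows were covered by 12.8%, 9.53% and 11.3%, with 3, 2 and 3 regions. From 60 to 90 kb they were covered by 6.85%, 6.73% and 8.01%, with 2 regions each. The windows from 90 and from 100 kb held 1 region each and were covered by 3.0% and 3.66%. The only region beyond lay in the window from 160 kb, which was covered by 2.59%. Over the whole gene the regions covered 16.6 kb, or 9.34%. The 5′ side of 88.6 kb was covered by 17.6% and the 3′ side of the same length by 1.04%, and the 5′ side held 94.4% of the covered bases.

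The first intron opened with the region at 57822384 to 57823712, which began 1.08 kb from the 5′ end of the gene and was 1329 nt long. It was followed after 262 nt by a region of 299 nt (57821823 to 57822121) and, after a further 186 nt, by one of 1032 nt (57820605 to 57821636). These 3 regions were separated by less than their own lengths. Regions of 493 and 415 nt followed at 6.50 and 8.09 kb from the 5′ end. The next group held 3 regions, one of 1015 nt (57814151 to 57815165), one of 671 nt (57812858 to 57813528) and one of 730 nt (57811917 to 57812646), the last pair separated by 211 nt. A short region at 57810853 to 57811101 and one of 624 nt at 16.0 kb came next.

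In the rest of the first intron 6 of 7 regions had at most 660 nt. A region of 281 nt lay at 19.7 kb. At 22.5 kb a short region (57802083 to 57802331) was followed after 334 nt by one of 660 nt, and at 26.2 kb a region of 318 nt was followed after 321 nt by one of 381 nt. The longest region of the gene, 1375 nt, lay at 57794986 to 57796360, 28.4 kb from the 5′ end. The intron closed with the region of 428 nt described above.

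In the second intron the regions lay further apart, in pairs or alone. The pair with the narrowest gap of the gene, 104 nt, lay at its start and consisted of 494 nt (57786674 to 57787167) and 353 nt (57786217 to 57786569). After a gap of 9.40 kb came a pair of 336 and 617 nt at 48.0 and 48.8 kb, separated by 451 nt. The region of 617 nt (57775410 to 57776026) was the longest of this intron. Single regions of 511 and 373 nt followed at 52.3 and 57.5 kb. The shortest region of the gene, 245 nt (57765553 to 57765797), lay at 59.0 kb, a short one (57759758 to 57760006) at 64.8 kb and one of 436 nt at 68.8 kb. Another pair, of 365 and 308 nt separated by 318 nt, lay at 75.9 kb. Regions of 281 nt at 81.1 kb and 520 nt (57739222 to 57739741) at 85.0 kb completed the 5′ side.

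The 3 regions of the 3′ side were short, at most 366 nt. A pair of them (57726009 to 57726308 and 57724176 to 57724541) was separated by 1467 nt in the second intron, 98.5 and 100.2 kb from the 5′ end. The last region (57664093 to 57664351) lay in intron 14, 160.4 kb from the 5′ end and 315 nt before the next exon. Here GENCODE 29 also places AC137834.1, a protein-coding gene on the same strand that reaches from 134.5 kb to beyond the 3′ end of R3HDM2. This region overlapped no annotated exon on the minus strand and cannot be assigned to R3HDM2 rather than to AC137834.1.

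**Figure D3:**
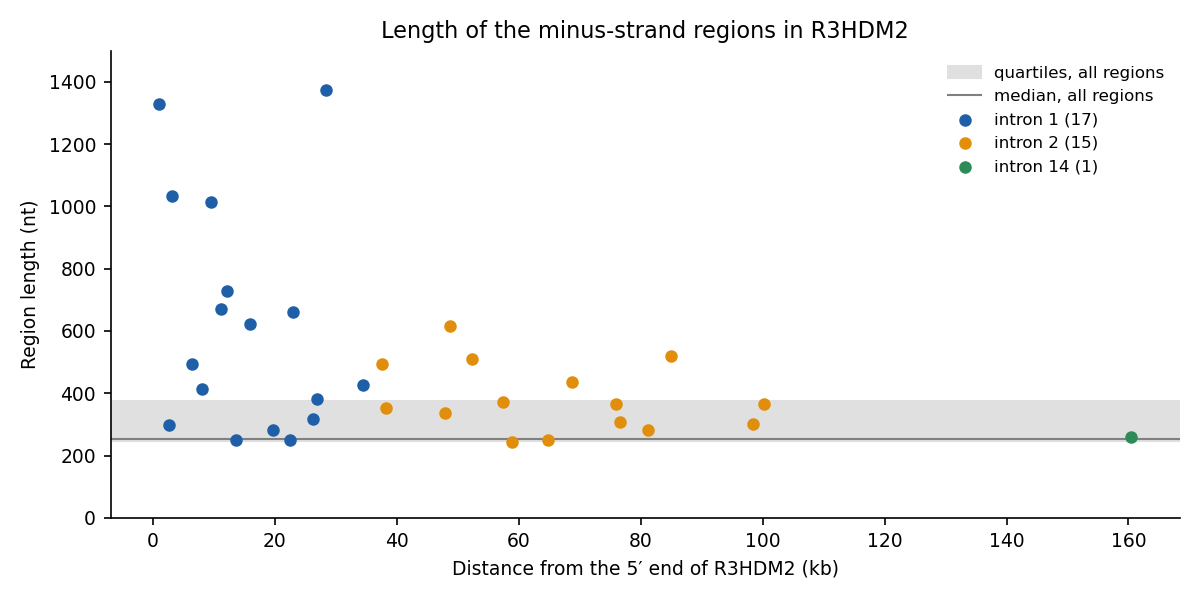
Length of each of the 33 minus-strand regions in nt against its distance from the 5′ end of R3HDM2 in kb, coloured by intron. The grey band spans the quartiles of all 23412 regions (248 to 374 nt) and the line their median of 253 nt. The 4 regions over 1000 nt all lie in the first intron.

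Regions in R3HDM2 were long for the list. The shortest had 245 nt, the middle one 381 nt and the longest 1375 nt, with quartiles at 300.0 and 617 nt. Over all regions the median was 253 nt and the quartiles were 248 and 374 nt. More than 1000 nt were reached by 4 of 33 (12.1%, 3.40 to 28.2%), against 2.23% (2.05 to 2.43%) of all regions. In the dense domains on chromosomes 11, 10 and 3 described below, it was 3 of 27, 3 of 26 and 3 of 25 regions. A share of this size was thus not particular to R3HDM2. The median was 493 nt in the first intron and 365 nt in the second, and the 4 regions over 1000 nt all lay in the first. Among the 135 domains of at least 10 regions described below, the median length of a domain's regions had a median of 440 nt, and that of the 30 regions on the 5′ side of R3HDM2 was 422 nt. At least 500 nt were reached by 8 of 17 regions in the first intron and by 3 of 15 in the second. The regions are no replicates of a condition, and joining of close regions before deposit may lengthen them where they are dense, which was not tested.

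The list has 1 length that is far more frequent than any other, close to its median of 253 nt, and it was found in 3 regions of the gene (9.09%, 1.92 to 24.3%). The share over the whole list, 19.7% (19.2 to 20.3%), lay within this interval. It was 27.2% (26.4 to 27.9%) among all minus-strand regions and 26.5% (23.4 to 29.8%) among those on chromosome 12. The regions of R3HDM2 are neighbours in 1 dense locus and no independent draws, so the difference between these shares was not tested. Dense domains held it at a median share of 5.56%, below the 10.0% of the 30 regions on the 5′ side of R3HDM2. These domains lie on both strands, and among all plus-strand regions the share was only 8.21%, so this comparison is unlike by strand. The 3 regions of this length in R3HDM2 lay at 13.7, 22.5 and 64.8 kb from the 5′ end.

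Gaps between neighbouring regions reached from 104 nt to 59.8 kb. Their median was 2187 nt, and their quartiles were 579 and 3864 nt. Over the whole list the median gap on the same strand was 43931 nt. Within the first intron the median gap was 1109 nt and within the second 3682 nt. Of the 32 gaps, 10 were at most 1000 nt and 2 exceeded 10 kb. The widest, of 59.8 kb (57664352 to 57724175), took in the end of the second intron and exons 3 to 14. The next was 12.9 kb wide (57726309 to 57739221), and starts 2 and 3 lie within it.

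Joined at gaps of at most 10 kb, the regions formed 3 domains of 30, 2 and 1 regions. The domain of 30 (57739222 to 57823712) was compared with the 135 domains of at least 10 regions in the list. It ranked 6 by number of regions and 2 by span, with 84.5 kb against a median of 31.8 kb. Its 0.355 regions per kb lay below the median of 0.433, and the 18.5% of it that was covered lay below the median of 24.0%. The domain was thus long among dense domains. Its density and covered share were below the median but within the quartiles, 0.353 to 0.551 per kb and 16.9 to 34.4%. Its median gap of 2060 nt ranked 24 from the widest, where the median over domains was 1012 nt.

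**Figure D4:**
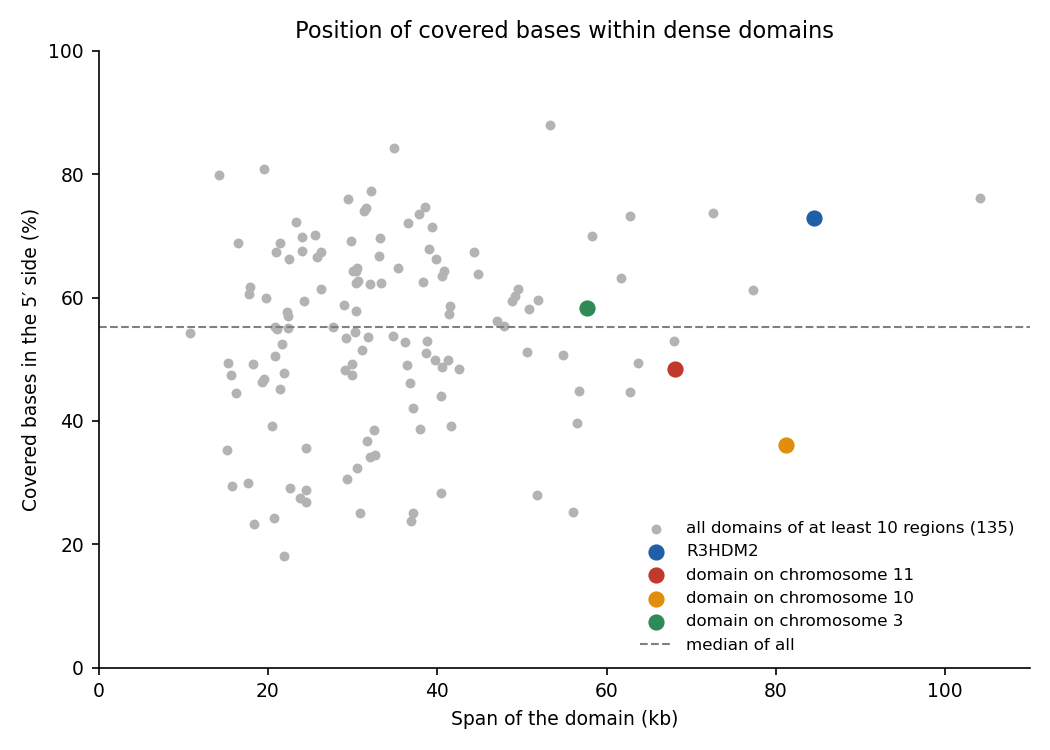
Share of covered bases on the 5′ side of the middle of each domain, in percent, against the span of the domain in kb, for the 135 domains of at least 10 regions. R3HDM2, at 72.9%, and the 3 domains compared with it are coloured, and the dashed line marks the median of 55.2%.

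The lean towards the 5′ side was also present within this domain. The 5′ side of its middle held 72.9% of its covered bases and 19 of its 30 regions, and it ranked 14 of 135 by the first measure, where the median was 55.2% and the quartiles were 45.6 and 64.9%. The domains on chromosomes 11, 10 and 3 named next were picked by chromosome from those with the most regions. A plus-strand domain on chromosome 11 (122541491 to 122609559), with 27 regions over 68.1 kb, held 48.4% of its covered bases on its 5′ side. A minus-strand domain on chromosome 10 (101680317 to 101761461), with 26 regions over 81.1 kb, held 36.1%, and one on chromosome 3 (48078643 to 48136348), with 25 regions over 57.7 kb, held 58.3%. Some other long minus-strand domains leaned to the 5′ side as R3HDM2 did. The value was 73.8% in one on chromosome 1 (21427578 to 21500186) with 23 regions over 72.6 kb. It was 76.1% in the longest domain, also on chromosome 1 (1724275 to 1828432), with 45 regions over 104 kb. In one on chromosome 3 (49072642 to 49135412) with 21 regions over 62.8 kb it was 73.2%. Others lay within the quartiles. The value was 61.3% in a domain on chromosome 7 (75062462 to 75139778) with 26 regions over 77.3 kb. It was 52.9% in one on chromosome 9 (33977521 to 34045540) over 68.0 kb. On chromosome X (114954714 to 115018401) it was 49.4% in a domain of 46 regions over 63.7 kb. A further domain on chromosome 3 (65888648 to 65951416), with 22 regions over 62.8 kb, lay below the quartiles at 44.6%. The lean was thus shared by some long domains and not by others. The domains were placed without gene models, and no test of these differences was made.

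The names of the regions carry running numbers that rise along the chromosome and strand, and numbers are missing between listed regions. The sources used here do not say what set the missing numbers apart. Within R3HDM2 the numbers ran over 80 values, of which 33 were listed (41.3%, 30.4 to 52.8%), against 19.3% (18.1 to 20.6%) on the minus strand of chromosome 12 and 15.0% (14.9 to 15.2%) over all numbers. A locus chosen for many listed regions has a high share by that choice, and among the 135 dense domains, with a median of 60.0%, the R3HDM2 domain had 47.6%, rank 23 from the lowest. The share was 60.7% (40.6 to 78.5%) from the first to the last region of the first intron, with 17 of 28 listed. It was 36.6% (22.1 to 53.1%) in the second, with 15 of 41 listed, and the intervals of the introns overlapped. This overlap is no test, and the difference between the introns was not tested. Each stretch begins and ends on a listed number by definition, which raises its share, more so in a short stretch.

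**Figure D5:**
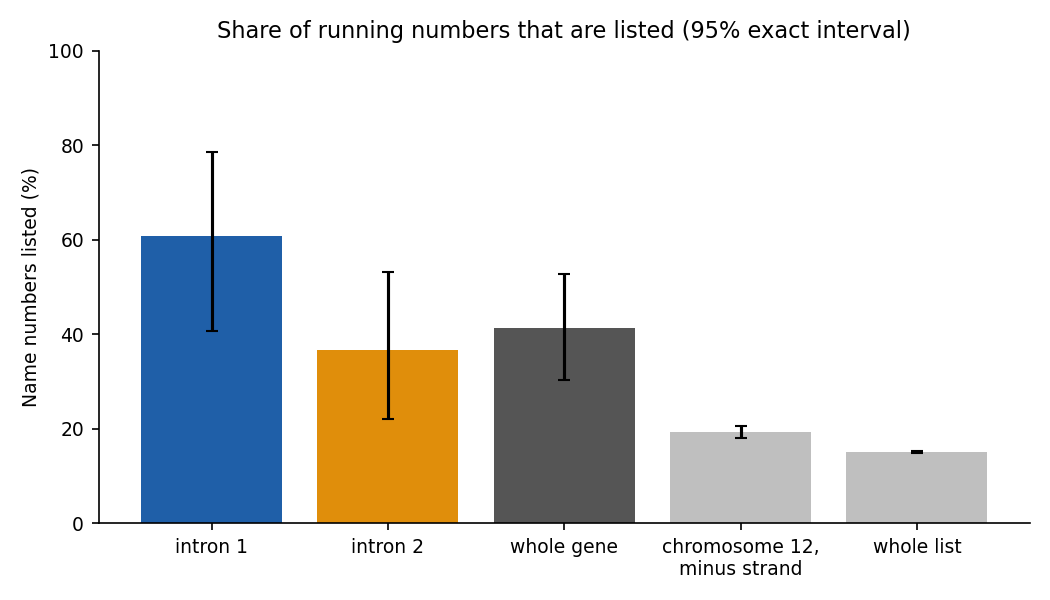
Share of running name numbers that are listed, in percent, between the first and last region of each stretch, with bars for the 2 long introns of R3HDM2, the whole gene, the minus strand of chromosome 12 and the whole list. Error bars are 95% exact binomial intervals. Those of the introns, 40.6 to 78.5% and 22.1 to 53.1%, overlap, which is no test of a difference.

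From the first to the second intron all numbers, listed or not, thinned out less than the listed ones. Per kb between the first and the last listed region there were 0.829 numbers in the first intron and 0.651 in the second, against 0.504 and 0.238 listed regions. The widest gap, over 59.8 kb, held 7 numbers, or 0.117 per kb, and none was listed. Over the same stretches the numbers that were not listed did not thin out. They stood at 0.326 per kb in the first intron and 0.413 in the second, above the 0.117 of the widest gap. The stretch in the second intron took in 63.0 kb of its 85.3 kb. It left out the end of that intron, which lies in the widest gap, so the densities of the whole intron are lower.

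The plus strand of the gene held 2 regions, both short and both within introns. One of 166 nt (57806899 to 57807064) lay in the first intron, 1104 nt from the nearest minus-strand region, and one of 172 nt (57750845 to 57751016) lay in the second, 1974 nt from the nearest. Neither overlapped a minus-strand region or an exon of an annotated plus-strand gene. The only plus-strand gene that GENCODE 29 places within R3HDM2 is RNU6-879P, a snRNA copy of 108 nt at 15.6 kb from the 5′ end, and no region of either strand overlapped it. The 2 plus-strand names were numbers 24771 and 24773, and at most 16 plus-strand numbers could fall within the gene, against 80 to 90 on the minus strand.

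The sequence on either side of R3HDM2 held few regions. The nearest minus-strand region lay 81.5 kb beyond the 3′ end of the gene (57565689 to 57566056), and the nearest on the 5′ side lay 113 kb away (57937407 to 57937915). The outermost members lay 1.08 kb inside the 5′ end and, on the 3′ side, in intron 14. In 200 kb on each side there were 5 minus-strand regions, 4 beyond the 3′ end and 1 beyond the 5′ end. Per kb the gene held 14.9-fold more, with a wide interval of 5.78 to 48.9-fold. With flanks of 100 or 500 kb it held 37.2-fold or 26.6-fold more, but these flanks held only 1 or 7 minus-strand regions. With 3 counts in place of the 1, the value for flanks of 100 kb was 12.4-fold. The choice of the locus favours these values, so they are a description and no test. The nearest plus-strand region beyond the 5′ end was 68.9 kb away.

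Apart from AC137834.1, which shares the region in intron 14, the nearest genes on each side held no region on either strand. Beyond the 5′ end these are AC126614.1, a long noncoding RNA that begins 111 nt from R3HDM2 on the opposite strand, and INHBC, which encodes an inhibin beta subunit of the TGF-beta family, 3755 nt away. Beyond the 3′ end it is STAC3, a muscle protein of excitation-contraction coupling, 2569 nt away on the same strand.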

How the data were processed

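HITS-CLIP was made in MDA-LM2 cells as 1 group of 2 replicates, grouped by the sample titles. Per the submitters' processing notes, Bowtie and the build hg19 were used. The version of Bowtie, how regions were called and filtered, and whether both replicates had to hold a region were not stated there. The authors deposited region coordinates (0-based starts, printed 1-based) and a score of 1 per region, so depth is unknown. The members and lists were chosen with earlier results of these data known.

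Exons of GENCODE 29 and RefSeq start sites are on GRCh38. They were placed by distance from the 5′ end of the gene, and no coordinate was converted. The gene is 177244 nt in GENCODE 29 and 177242 nt in the span used, a difference of 2 nt. This was accepted although equal lengths had been planned, and a constant offset within the gene was assumed. Sequences are from RefSeq.

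Shares have 95% exact Clopper-Pearson intervals, which cover counting error only, and no test was run. Named regions were the longest 5, the first, last and shortest, those beside the widest and narrowest gaps, and those on the plus strand; other named regions were picked after their values were seen. Start sites and intron coverage were added after the data were seen. Coverage, gaps and joining were tested on 200 simulated sets of 30 regions and were recovered in all 200. Python 3.11.15, numpy 2.4.6, scipy 1.17.1 and matplotlib 3.10.9 were used.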

Additional observations from a re-analysis of the deposited data

How the results depend on the processing

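Of 48 alternative settings for 15 results, 35 left the value within its interval, or a count within 1.5 times. Several of the 35 could not have moved, so their number is no measure of stability. All regions lay wholly inside the gene, so settings that ask for this returned the same value. Leaving out the regions of the most frequent length could not change the region count by 1.5 times. The splits at the middle and at the internal start give the same counts, so their settings repeat each other in part. Without regions of the most frequent length, without the longest region and with regions at or above the median length only, the covered share was 8.92%, 8.57% and 8.78% of the gene, 16.8%, 16.1% and 16.5% of the 5′ side, 28.8%, 26.3% and 28.8% of the first intron and 6.45%, 6.02% and 6.17% of the second. These shares fell because regions were left out, and their interval, over nucleotides, is narrow. Joined at gaps of 5 kb the regions formed 6 domains in place of 3, by construction. The share of regions before the internal starts was 81.3% (13 of 16) without the first intron and 88.0 to 90.9% under the other settings. The exon count was 0 under each of its 3 alternatives, which was fixed in advance. Each of them uses fewer exons or a longer overlap than the main count of 0, and all are among the 35. The alternatives for internal starts and intron coverage were chosen after seeing the data. No paired analysis was possible because the single list pools both replicates of 1 group, which also prevented leaving either replicate out. The depth behind a region is unknown and limits every value here.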
